A study of Mus musculus with 386 samples.

Results

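The cytosolic ribosomal protein genes are the 71 of 18820 genes on the array whose single symbol is Rpl, Rps or Rplp followed by digits and at most 1 of the letters a, l and x. Of these, 46 belong to the large subunit (Rpl and Rplp) and 25 to the small subunit (Rps). A gene with several transcript clusters is represented by its brightest one, judged by the mean over all arrays. Rps4l, which is among the 71, is listed by RefSeq as a transcribed pseudogene.

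Signals were measured on Affymetrix Mouse Gene 1.1 ST arrays, with 85 arrays of brain, 102 of kidney, 101 of liver and 98 of lung from 111 mice of 23 days of age. The F1 hybrids came from 6 reciprocal crosses, CASTxPWK, PWKxCAST, CASTxWSB, WSBxCAST, PWKxWSB and WSBxPWK, with the dam named first. The inbred parents were CAST, PWK and WSB, which are mouse strains derived from wild-caught animals. Each cross and tissue had 6 to 13 arrays from separate animals of both sexes, and none of the mice is described as treated or as carrying an engineered allele. All values are log2 signals, and a difference of 1 is a 2-fold difference in signal. The 5 markers each of neurons, kidney tubule, hepatocytes and lung epithelium were highest in their labelled tissue, and 7 heart muscle genes averaged 10.61 in the lung (8.80 to 12.21 over arrays), against 6.85 in the brain, 5.84 in the kidney and 5.81 in the liver. On PWKxWSB liver replicate 8, labelled male, both the X-inactivation transcript Xist and the Y-linked gene Eif2s3y went against the label. PWKxCAST brain replicate 9, labelled female, lacked Xist and, like the other females, Eif2s3y, so the 2 markers disagree on its sex.

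Each ribosome is built from a small subunit, which reads the messenger RNA, and a large subunit, which joins the amino acids. One copy of almost every ribosomal protein goes into each ribosome, so cells make these proteins in matched amounts. Their messenger RNAs begin with an uninterrupted run of C and U at the 5′ end, the terminal oligopyrimidine tract, through which growth signalling controls their translation. Several ribosomal protein genes also have close paralogs that are used in particular tissues, such as Rpl10l and Rpl39l in male germ cells and Rpl3l in heart and skeletal muscle.

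Ribosomal protein messages have left many near-identical copies in the genome, and the array holds several clusters for most of these symbols. Of the 71 genes, 54 had several clusters, 376 in all and up to 41 for a single gene (Rpl21). The array's cluster numbers follow the genome, and the 10 neighbouring clusters placed 99.5% of 17379 genes with a single cluster on their own chromosome. By the same reading, 28 of the chosen clusters lay on the chromosome of the gene and 43 among clusters of another chromosome. Which copies of a sequence the probes read cannot be told apart here, so signals of genes with several clusters are uncertain to that extent. Strain variants that fall under probes were not looked at, so their part in any difference between strains, or between F1 mice and a parent, was not tested.

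The start of the transcript could be read for 57 of the 71 genes from the RefSeq promoter table (build GRCm38.p6), with 250 bases before and 50 after the annotated start. Within 5 bases of the start, 31 of 57 genes (54.4%) had a run of at least 6 pyrimidines, against 23.0% of 27025 genes in that table. The letters CCGGAAG, which match the core of sites for Ets-family factors, were present on either strand in 24 of 57 (42.1%), against 9.9% of all genes. On the strand that reads as the messenger RNA, CTCTTT was present in 22 (38.6%) against 13.7% and CTTTCC in 23 (40.4%) against 16.0%. The TATA box letters TATAAA were present there in 6 (10.5%) against 9.8%. The 30 bases around the start are shown for 8 genes. Rps6, Rps10 and Rps18 were chosen for their long runs, and Rps26, Rps19, Rps27l, Rpl13 and Rpl39 because the tissue, strain and sex results turn on them. Other members had longer runs, such as 21 pyrimidines in Rpl7a and 20 in Rpl27a, or short ones, such as 2 in Rps12 and 1 in Rpl10. Differences in run length between the genes shown therefore follow in part from this choice. The start base is the 11th letter, and capitals mark the longest pyrimidine run that touches the window of 5 bases on either side, cut at the ends of the printed stretch. Rps6 lies at chr4:86857348-86857377 on the minus strand, Rps10 at chr17:27635225-27635254 (minus), Rps18 at chr17:33955646-33955675 (minus), Rps26 at chr10:128626487-128626516 (minus), Rps19 at chr7:24884582-24884611 (plus, the first of 3 listed starts), Rps27l at chr9:66946076-66946105 (plus, the first of 2), Rpl13 at chr8:123102340-123102369 (plus) and Rpl39 at chrX:37085203-37085232 (minus).
Rps6: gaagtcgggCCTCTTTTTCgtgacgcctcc
Rps10: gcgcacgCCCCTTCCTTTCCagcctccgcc
Rps18: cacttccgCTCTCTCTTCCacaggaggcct
Rps26: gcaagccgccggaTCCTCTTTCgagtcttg
Rps19: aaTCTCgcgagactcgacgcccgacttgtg
Rps27l: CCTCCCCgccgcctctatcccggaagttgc
Rpl13: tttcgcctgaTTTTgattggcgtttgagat
Rpl39: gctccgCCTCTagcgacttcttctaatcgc
The runs are 10 pyrimidines long in Rps6, 13 in Rps10, 11 in Rps18 and 9 in Rps26, against 4 in Rps19, 4 in Rpl13 and 5 in Rpl39. That of Rps27l is 9 long and begins before the printed stretch. These are descriptions of the annotated starts, and neither a match nor its absence was tested against the array signals.

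The ribosomal protein genes were among the brightest on the array in all 4 tissues. Their median level was 11 in the brain, 11.62 in the kidney, 11.46 in the liver and 11.54 in the lung, against 7.40, 7.35, 6.91 and 7.38 for all genes in the same tissues. Of the 71 genes, 55 averaged above 10 in the brain, 57 in the kidney, 56 in the liver and 57 in the lung, and between 49 (brain) and 56 (kidney) were at or above the 90th percentile of all genes. Probe brightness differs between probe sets, so the order of genes within a tissue is a description of signals and not of transcript amounts. The highest signals in brain were those of Rplp1 (13.02), Rps6 (12.84) and Rps15 (12.72), followed by Rpl39 (12.63). Rplp1 was also highest in kidney (13.37), and Rplp0 (13.19) and Rps2 (12.99) came next there. In liver the order was Rps6 (13), Rplp1 (12.99) and Rps2 (12.93), and in lung Rplp1 (13.09), Rplp0 (13.08) and Rps6 (13.07). Rplp0 and Rplp1 are proteins of the stalk that recruits translation factors, and Rps6 is the substrate of the S6 kinases.

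**Figure D1:**
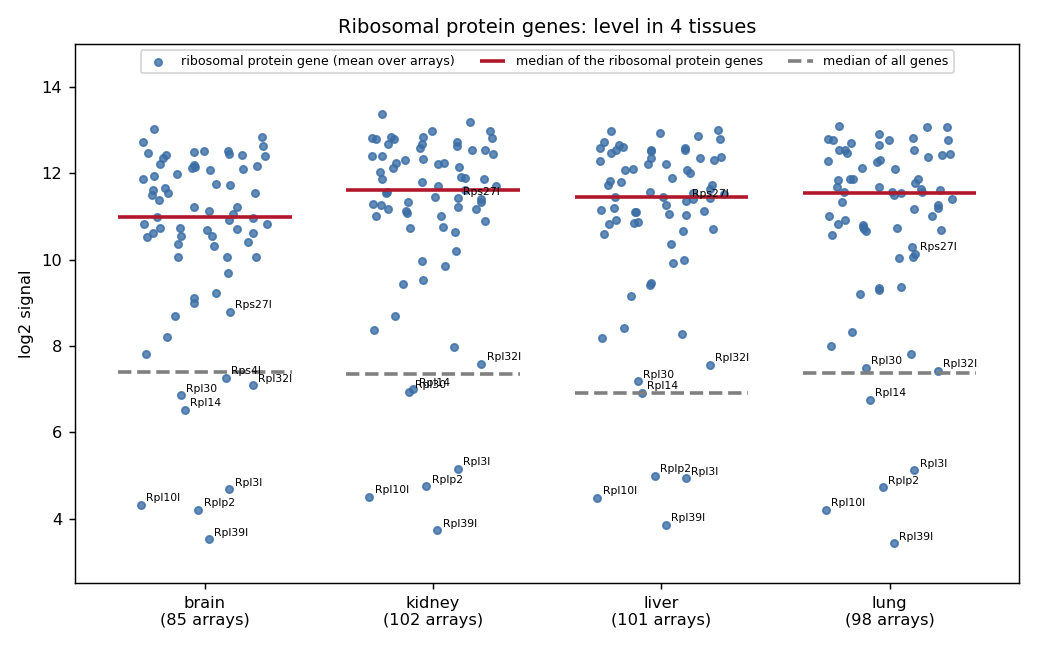
Mean log2 signal of each ribosomal protein gene in brain, kidney, liver and lung (1 point per gene and tissue), with lines at the median of these genes and at the median of all genes. Most points lie above 10 in every tissue, and Rpl39l, Rpl10l, Rplp2 and Rpl3l lie below 6 in all 4.

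A few members were dim. Rpl39l averaged 3.52 in the brain, 3.73 in the kidney, 3.86 in the liver and 3.43 in the lung, and Rpl10l averaged 4.32, 4.51, 4.48 and 4.20 in that order. Their broadly used counterparts averaged 12.63 to 12.83 (Rpl39, a protein of the exit tunnel) and 12.20 to 12.92 (Rpl10, which completes the large subunit). Rplp2, another stalk protein, averaged 4.20 to 4.99 on its single cluster. How well that cluster reads the Rplp2 messenger RNA was not tested, so this signal does not show a low transcript amount. Rpl3l averaged 4.68 in the brain, 5.16 in the kidney, 4.94 in the liver and 5.12 in the lung, where its SD was 0.70 over 98 arrays and its highest array reached 7.72. Its counterpart Rpl3 averaged 12.39 to 12.46 in the 4 tissues. In lung the 7 heart muscle markers were at 8.80 to 12.21 as a mean per array, and 6 skeletal muscle markers at 5.42 to 10.86. Their part in the Rpl3l signal was not tested. Rpl10l, Rpl39l, Rpl3l and Rplp2 were below the 40th percentile of all genes in each tissue and were not tested further, which leaves 67 genes. Of those 67, the lowest were Rpl14 (6.52 in brain and 6.75 in lung) and Rpl30 (6.86 in brain and 6.94 in kidney), with Rpl32l at 7.09 to 7.59 and the pseudogene Rps4l at 7.27 to 8.27. Rps4x, the X-linked gene of which Rps4l is a copy by name, averaged 10.70 to 11.57.

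The question of the tissue comparison is where the ribosomal protein signals stood in each tissue relative to the other 3. Brain was lower: of the 67 genes tested, 0 were higher and 64 lower in brain than in the mean of the other tissues, with a median difference of -0.34 (limma, adjusted p under 0.05, where 40.4% of all genes tested were called higher and 55.9% lower). Rpl3, Rps15 and Rps21 were the 3 that did not pass. Kidney was higher for 64 genes and lower for 1, with a median of 0.28, against 51.5% and 43.1% of all genes. In liver 36 were higher and 19 lower, with a median of 0.05, against 43.5% and 52.9% of all genes. In lung 32 were higher and 28 lower, with a median of 0.02, against 51.0% and 45.2%. The median of all genes differed from the other tissues by -0.18 in the brain, 0.06 in the kidney, -0.10 in the liver and 0.06 in the lung. The scaling bears on these splits. With each array centred on the median of all genes, 0 were higher and 67 lower in the brain, 52 and 7 in the kidney, 67 and 0 in the liver, and 7 and 54 in the lung. With quantile normalisation over all arrays the splits were 4 and 55 in the brain, 62 and 1 in the kidney, 23 and 38 in the liver, and 35 and 22 in the lung. Lower signals in the brain and higher signals in the kidney were thus found under all 3 scalings, and the direction in the liver and in the lung turned with the scaling. The shares of all genes given above belong to the signals as deposited. They were not set beside the counts under the other scalings, which shift all genes as well. In such bulk samples fewer cells of a type and less RNA per cell cannot be told apart.

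Rps27l, a paralog of Rps27 that is induced by p53, varied most between tissues. Its arrays averaged 8.80 ± 0.49 in the brain (SD, n = 85), 11.42 ± 0.43 in the kidney (n = 102), 11.37 ± 0.29 in the liver (n = 101) and 10.14 ± 0.50 in the lung (n = 98). The differences from the other tissues were -2.22 in the brain (SE 0.028, adjusted p 1.07e-226 in limma), 1.34 in the kidney, 1.25 in the liver and -0.38 in the lung. Rps27 itself averaged 9.11 in the brain, 9.97 in the kidney, 9.42 in the liver and 9.34 in the lung. Rps27l was therefore the member with the lowest difference in brain and the highest in kidney and liver among those called.

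After Rps27l, the lowest called differences in brain were those of the small-subunit gene Rps12 (-0.91, SE 0.018) and of Rpl10a (-0.85, SE 0.021), both of which were called higher in kidney, liver and lung. The smallest decreases called in brain were those of Rpl17 (-0.08), Rplp1 (-0.13) and Rpl27a (-0.13). In kidney Rps27 (0.69, SE 0.035) and Rps7 (0.52, SE 0.027) followed Rps27l, and Rpl30 was the 1 gene called lower (-0.24, SE 0.019). Rpl3 (0.04) and Rpl4 (0.04) rose least there, and Rpl21 and Rps6 did not pass. In liver Rps4l (0.58, SE 0.026) and Rps12 (0.44) were the highest after Rps27l, and Rps3 (-0.19), Rps15 (-0.18) and Rpl8 (-0.17) the lowest. In lung the highest were Rpl30 (0.50, SE 0.019), Rpl10 (0.45, SE 0.009) and Rps4x (0.36, SE 0.018), and the lowest Rps21 (-0.44, SE 0.024), Rps7 (-0.44, SE 0.027) and Rps27l. Rpl30, a large-subunit protein, was thus lower in brain and kidney and higher in lung.

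**Figure D2:**
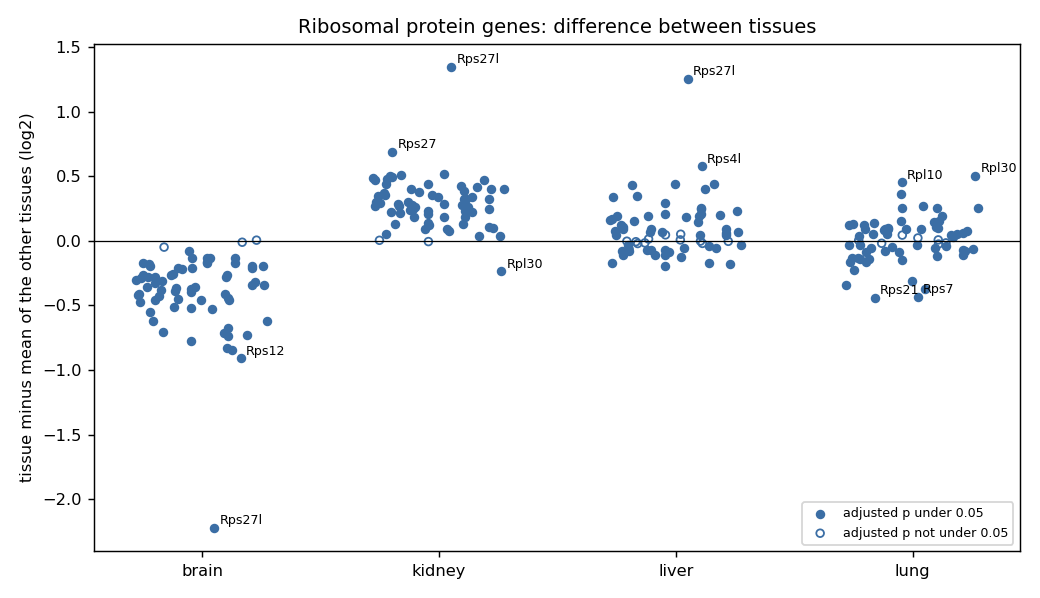
Difference of each ribosomal protein gene between a tissue and the mean of the other tissues (log2), 1 point per gene, with open points for genes that did not pass the test. Nearly all genes lie below 0 in brain and above 0 in kidney, and Rps27l lies apart at -2.22 in brain.

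The genes around the ribosome were counted from fixed lists. Among 19 genes of elongation factors and other terminal oligopyrimidine transcripts, 2 were higher and 16 lower in the brain, 16 and 2 in the kidney, 9 and 8 in the liver, and 8 and 9 in the lung. Examples with the smallest p were Eif3l (-0.71) and Tpt1 (-0.56) in the brain, Eif3k (0.58) in the kidney, the histone chaperone Nap1l1 (-0.90) in the liver and Eif3f (0.55) in the lung. The 4 ribosomal proteins outside the symbol pattern, Rpsa, Rps3a1, Fau and Rpl7l1, were all lower in the brain (Rpsa -0.37, Rps3a1 -0.41, Rpl7l1 -0.84) and all higher in the kidney and in the liver, and 2 were higher and 2 lower in the lung. The mitochondrial ribosomal proteins, which serve a separate ribosome, were higher for 6 and lower for 66 of 73 genes in the brain (median -0.50), 73 and 0 in the kidney (0.69), 68 and 4 in the liver (0.63), and 0 and 73 in the lung (-0.92). Ribosome biogenesis factors went both ways, with 14 higher and 22 lower of 40 in the brain, 15 and 24 in the kidney, 27 and 11 in the liver and 10 and 21 in the lung. Of 14 growth signalling genes 7 were higher and 7 lower in the brain, where the translation repressors Eif4ebp1 (-2.25) and Eif4ebp2 (-1.53) were lower, and 9 and 3 in the kidney, 9 and 5 in the liver and 4 and 9 in the lung.

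The inbred strains were compared in each tissue to ask which genes set a strain apart. In brain CAST minus PWK called 7 of 67 genes higher and 20 lower (19.7% and 21.2% of all genes), CAST minus WSB 16 and 13 (26.6% and 25.7%), and PWK minus WSB 30 and 10 (21.3% and 19.1%). In kidney the counts were 25 and 8 (27.2% and 33%) for CAST minus PWK, 15 and 15 (34.1% and 25.5%) for CAST minus WSB, and 8 and 26 (37.5% and 23.2%) for PWK minus WSB. The liver counts were 28 and 8 (23.8% and 26.3%), 32 and 7 (31.7% and 25.3%), then 15 and 19 (31.7% and 23.6%) for the same contrasts. The lung counts were 23 and 11 (33.1% and 29.5%), 23 and 9 (35.9% and 24%), then 16 and 16 (34.7% and 26.7%). Counting both directions, 40.9%, 52.4% and 40.4% of all genes were called in the brain, 60.1%, 59.6% and 60.7% in the kidney, 50.1%, 57% and 55.3% in the liver, with 62.7%, 59.9% and 61.4% in the lung. In brain the members called for PWK minus WSB came to 40 of 67, a higher share than that of all genes. For the other 11 contrasts the share of members called was near that of all genes, or below it. The balance of calls differed between tissues, with PWK higher than WSB for 30 genes in brain and lower for 26 in kidney. These were mostly different genes, since 4 of the 67 were called in opposite directions for PWK minus WSB, against 18.5% of all genes. In lung the tissue makeup moved with the strains as well: PWK minus WSB was lower for 7 of 7 heart muscle markers (median -1.26) and 4 of 6 lymphocyte markers. In liver 3 of 7 proliferation markers were higher in PWK than in WSB. The mean of the 5 hepatocyte markers there was 12.82 in CAST (12.78 to 12.89 over arrays) and 12.05 in PWK (11.87 to 12.26), against 13.11 in WSB (12.95 to 13.22), with no overlap between PWK and the others. Of these 5, 1 was called higher and 1 lower for PWK minus WSB, with a median difference of 0.04. Their part in the member differences was not tested.

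Judged by the brightest cluster of each gene, large strain differences were found in few members. The share of members was near that of all genes for any tissue, above it in the brain and below it in the other tissues. In 5 genes, Rps19, Rps26, Rpl13, Rpl7 and Rps27l, an inbred pair differed by at least 1 log2 in at least 1 tissue, which is 5 of 67, against 9.62% of the 9152 genes tested in all tissues. All 5 passed this size in the brain, against 2.71% of all genes there, 1 in the kidney (6.7%), 1 in the liver (8.28%) and 2 in the lung (7.67%). Other clusters of some further members also differed by at least 1 log2. Over the clusters of a gene, brain CAST minus WSB lay between -1.80 and -0.24 for Rplp0, and between -1.65 and -0.11 for Rplp1. It lay between 0.14 and 1.79 for Rps15a in liver. In lung CAST minus PWK lay between -1.06 and 0.04 for Rps2, and PWK minus WSB between -1.03 and -0.36 for Rps9. These clusters do not enter the count of 5 genes.

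Rps19, a small-subunit protein whose gene is mutated in Diamond-Blackfan anaemia in humans, was lower in CAST and in PWK than in WSB in every tissue. In brain the arrays ran from 6.86 through a median of 7.57 to 8.05 in CAST and from 7.24 through 7.43 to 8.25 in PWK, against 9.06, 9.88 and 10.11 in WSB. In kidney they ran from 7.69 through 8.45 to 8.92 in CAST and from 7.63 through 8.51 to 9.01 in PWK, against 10.35, 10.64 and 10.72 in WSB. The WSB arrays did not overlap with either strain in these 2 tissues or in the other two. In liver CAST ran from 6.90 through 8.03 to 8.84 and PWK from 7.48 through 8.03 to 8.98, against 9.76, 10.21 and 10.63 in WSB. In lung CAST ran from 6.89 through 7.96 to 8.64 and PWK from 7.48 through 8.18 to 8.69, against 10.06, 10.50 and 10.78 in WSB. CAST minus WSB was -2.24 in the brain (SE 0.129, adjusted p 1.98e-25), -2.27 in the kidney (SE 0.115, 1.44e-32), -2.09 in the liver (SE 0.151, 1.53e-22) and -2.58 in the lung (SE 0.137, 3.34e-30) in limma. PWK minus WSB was -2.16, -2.13, -2.12 and -2.35 in the same order, with adjusted p of at most 2.62e-21. CAST minus PWK lay between -0.23 and 0.02 and passed in none of the tissues. Rps19 has a single cluster, which lies on its own chromosome.

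Rps26, a small-subunit protein near the exit channel of the messenger RNA, was higher in PWK. In brain the arrays ran from 11.33 through 11.50 to 11.68 in CAST, from 12.52 through 12.62 to 12.75 in PWK and from 11.33 through 11.60 to 11.74 in WSB. In lung they ran from 12.12 through 12.28 to 12.36 in CAST, from 12.76 through 12.89 to 12.93 in PWK and from 12.05 through 12.28 to 12.37 in WSB. PWK thus stood clear of both other strains. CAST minus PWK was -1.12 in the brain (SE 0.062, adjusted p 2.79e-26), -0.70 in the kidney, -0.73 in the liver and -0.60 in the lung, and PWK minus WSB was 1.06, 0.69, 0.77 and 0.60. The difference was larger in brain than elsewhere, and the test of strain by tissue gave adjusted p of 8.35e-20 for CAST minus PWK and 8.6e-17 for PWK minus WSB. Over the 3 Rps26 clusters, brain CAST minus PWK lay between -1.12 and -0.96.

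Rpl13, a large-subunit protein, was also higher in PWK. Its brain arrays ran from 9.99 through 10.28 to 10.45 in CAST, from 11.11 through 11.24 to 11.35 in PWK and from 9.47 through 10.24 to 10.38 in WSB. CAST minus PWK was -0.96 in the brain (SE 0.092, adjusted p 3.02e-14), -0.67 in the kidney, -0.55 in the liver and -0.72 in the lung, and PWK minus WSB was 1.07, 0.66, 0.69 and 0.95. The PWK arrays of brain did not overlap with those of the other strains. Over its 9 clusters, brain PWK minus WSB lay between 0.77 and 1.08.

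Rpl7, a large-subunit protein, was lower in WSB. Its brain arrays ran from 10.93 through 11.03 to 11.26 in CAST and from 10.84 through 11.09 to 11.28 in PWK, against 9.60, 9.86 and 10.33 in WSB. CAST minus WSB was 1.20 in the brain (SE 0.110, adjusted p 1.87e-15), 0.86 in the kidney, 0.90 in the liver and 0.87 in the lung. PWK minus WSB was 1.16 in the brain, 0.60 in the kidney, 0.67 in the liver and 0.72 in the lung. The groups did not overlap in brain, and over the 4 Rpl7 clusters brain CAST minus WSB lay between 0.95 and 1.20.

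Rps27l, the gene that varied most between tissues, was higher in WSB. Its brain arrays ran from 7.94 through 8.35 to 8.57 in CAST and from 7.87 through 8.12 to 8.45 in PWK, against 8.98, 9.36 and 9.86 in WSB. In lung they ran from 9.40 through 9.72 to 9.97 in CAST and from 8.76 through 9.58 to 10.11 in PWK, against 9.97, 10.68 and 11.04 in WSB. The strains were apart in brain and met at the edges in lung. CAST minus WSB was -1.01 in the brain (SE 0.093, adjusted p 2.09e-15), -0.995 in the kidney, -0.76 in the liver and -0.89 in the lung, and PWK minus WSB was -1.24, -0.97, -0.51 and -1.07. Rps27l has a single cluster.

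**Figure D3:**
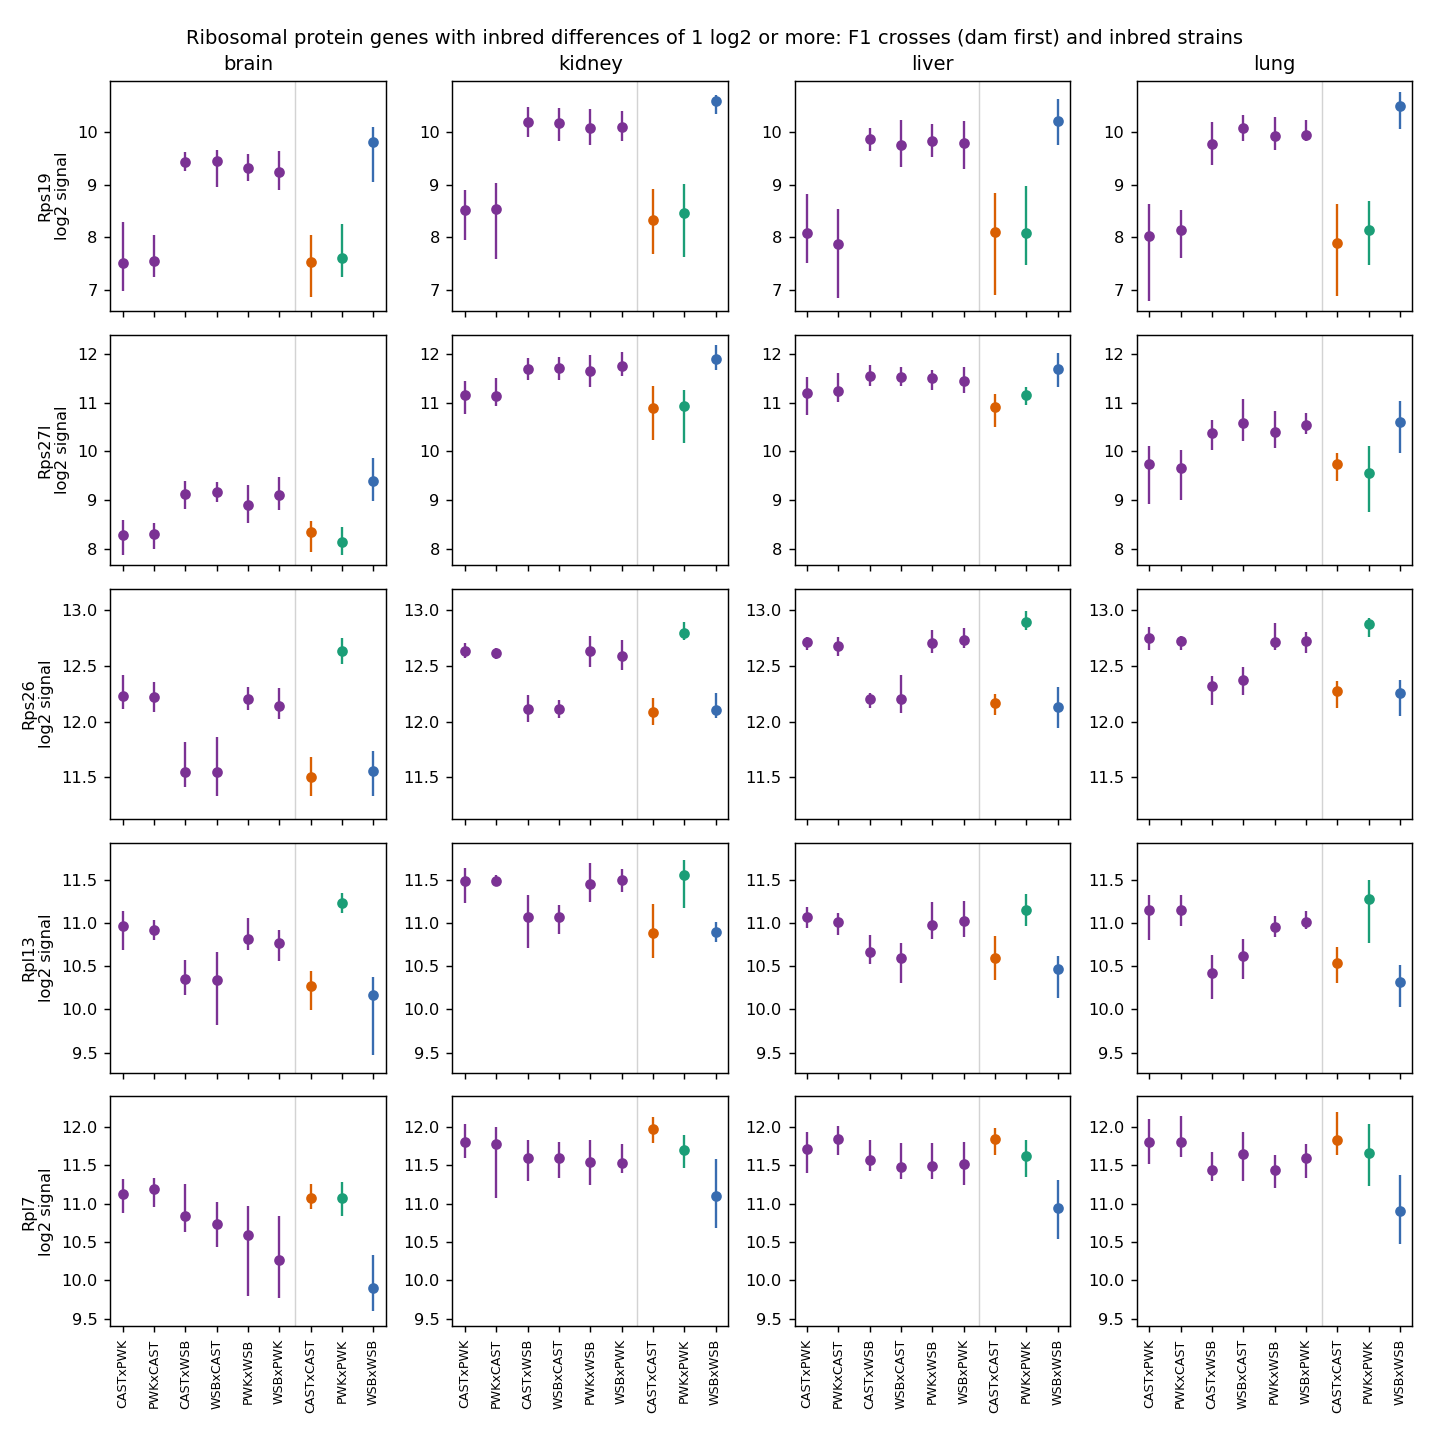
Log2 signal of Rps19, Rps26, Rpl13, Rpl7 and Rps27l by cross and tissue, with the F1 crosses left of the inbred strains, points for means and vertical lines from the lowest to the highest array. The means of Rps19 lie above 9 in WSB and in the F1 crosses with a WSB parent, and below 9 in the other crosses.

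The pattern of a strain that stands apart in the same way could be counted for all members. A strain that differed from both others with the same sign was found for 38 of 67 genes in the brain (52.7% of all genes), 41 in the kidney (72.9%), 43 in the liver (65.3%) and 39 in the lung (73.6%). In 17 of the 67 the same strain stood apart in the same direction in all 4 tissues, against 10.4% of 9152 genes. CAST was higher for 2, PWK higher for 3 and lower for 3, WSB higher for 5 and lower for 4, and CAST was lower for 0. All 17 are named here, and those outside the rule for named genes were chosen after their values were seen. CAST was higher for Rpl11, a protein of the 5S particle that binds Mdm2 (CAST minus PWK 0.23 to 0.54, CAST minus WSB 0.27 to 0.59 over tissues), and for Rpl36 (0.22 to 0.59 and 0.34 to 0.65). PWK was higher for Rps26, Rpl13 and Rps14 (CAST minus PWK -0.54 to -0.31) and lower for Rpl30 (CAST minus PWK 0.51 to 0.84), Rps9 (0.24 to 0.66) and Rpl39. WSB was higher for Rps19, Rps27l, Rpl13a (CAST minus WSB -0.85 to -0.66), Rpl7a (-0.71 to -0.51) and Rpl23a (PWK minus WSB -0.80 to -0.43). WSB was lower for Rpl7, Rps15 (CAST minus WSB 0.30 to 0.49), Rpl37 and Rps20. The clusters of Rpl13a, Rpl23a and Rpl7a did not all point the same way. Brain PWK minus WSB lay between -0.39 and 0.15 over the 2 clusters of Rpl13a, between -0.43 and 0.13 over the 13 of Rpl23a and between -0.87 and 0.01 over the 17 of Rpl7a.

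Strain differences were also compared between tissues, where members were called in opposite directions less often than all genes. In the strain-by-tissue test their share was near that of all genes, and below it for CAST minus WSB. CAST minus PWK was called higher in all 4 tissues for 6 genes and lower in all 4 for 4, against 4.88% and 6.71% of the 9152 genes tested in all tissues. The counts were 11 and 5 for CAST minus WSB (7.09% and 6.03%) and 7 and 8 for PWK minus WSB (7.11% and 5.03%). Calls in opposite directions in different tissues occurred for 5, 0 and 4 of the 67 members in the same order of contrasts, against 18%, 20.9% and 18.5% of all genes. The strain-by-tissue F-test of limma, with the animal as a random block, passed for 44 of 67 genes for CAST minus PWK (67.6% of all genes), 26 for CAST minus WSB (71.2%) and 48 for PWK minus WSB (67.4%). Among the lists, the laminin receptor Rpsa was lower in WSB in every tissue, with CAST minus WSB from 0.66 to 0.83 and PWK minus WSB from 0.64 to 0.75. Of the 19 elongation factors and related genes, CAST was higher than PWK for 12 and lower for 2 in kidney and higher for 12 and lower for 1 in liver. Of 40 biogenesis factors, PWK was higher than WSB for 25 and lower for 0 in liver.

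The position of the F1 mice between their parents was read for every called inbred difference of at least 0.5 log2. The scale puts the mid-parent at 0, the first strain of the contrast at 0.5 and the second at -0.5, so that a value past 0.5 in size lies outside both parents. There were 91 such differences in 21 genes. Their positions ranged from -0.54 to 0.39, and 49 lay within 0.25 of the mid-parent. The median position was -0.14, but its sign follows the order of the strains in each contrast. Leans toward the parent with the higher signal therefore partly cancel in a median. In lung the median was 0.03, although the F1 mean was nearer the higher parent in 24 of 25. In 84 of 91 the F1 mean was nearer the parent with the higher signal, and 2 lay outside both parents, both for CAST minus WSB in kidney. On the linear scale of signal 69 lay within 0.25 of the mid-parent, and the median position, with the same limit, was -0.10. The mid-parent difference itself passed the test for 66 of the 91. These positions share the parents' arrays with the differences that define them, and were given no test of their own. For the X-linked genes among them, Rpl39 and Rpl36a, the F1 means pool males with only the dam's X and females with both.

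For Rps19 the means of the F1 mice with a WSB parent lay between the mid-parent and WSB. In brain their arrays ran from 9.26 through 9.40 to 9.63 in CASTxWSB and from 8.97 through 9.52 to 9.67 in WSBxCAST, against 6.86 to 8.05 in CAST and 9.06 to 10.11 in WSB. PWKxWSB averaged 9.32 and WSBxPWK 9.24 in brain, against 7.60 in PWK and 9.81 in WSB. CASTxPWK and PWKxCAST, which have no WSB parent, averaged 7.52 and 7.56, within the range of the 2 low strains. The log2 position was -0.34, -0.32, -0.31 and -0.28 for CAST minus WSB in brain, kidney, liver and lung, and -0.26, -0.26, -0.31 and -0.27 for PWK minus WSB. On the linear scale these became -0.23, -0.19, -0.18 and -0.11, and -0.11, -0.12, -0.19 and -0.11. The F1 mice thus lay on the WSB side of the mid-parent on both scales. They were closer to WSB than to the mid-parent on the log2 scale, and closer to the mid-parent on the linear one.

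The other 4 genes with large differences lay nearer the middle in brain than in the other tissues for at least 1 contrast. Rps26 averaged 12.23 in CASTxPWK and 12.22 in PWKxCAST in the brain, against 11.50 in CAST and 12.63 in PWK, and its position for CAST minus PWK was -0.14 in the brain, -0.26 in the kidney, -0.22 in the liver and -0.28 in the lung. For PWK minus WSB it was 0.07, 0.23, 0.26 and 0.24. Rpl13 gave -0.19, -0.40, -0.29 and -0.32 for CAST minus PWK and 0.09, 0.39, 0.28 and 0.19 for PWK minus WSB. Both genes are higher in PWK, and on the log2 scale the F1 mice lay on the PWK side in each of these comparisons. On the linear scale the brain positions for PWK minus WSB were -0.02 for Rps26 and 0 for Rpl13, at the mid-parent. Rpl7 gave 0.26, 0.07, 0.14 and 0.19 for CAST minus WSB and -0.04, 0.22, 0.34 and 0.31 for PWK minus WSB, on the side away from WSB except for PWK minus WSB in brain. Rps27l gave -0.26, -0.31, -0.32 and -0.32 for CAST minus WSB and -0.19, -0.31, -0.12 and -0.34 for PWK minus WSB, on the side of WSB.

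Against the mid-parent, members that passed were mostly higher in the F1 mice. For CAST and PWK, 7 were higher and 1 lower in the brain (11.2% of all genes were higher and 7.7% lower), 32 and 0 in the kidney (17.1% and 16.6%), 6 and 0 in the liver (7.34% and 11.3%), and 12 and 0 in the lung (10.1% and 9.43%). For CAST and WSB, 32 were higher and 1 lower in the brain (23% and 14%), 22 and 2 in the kidney (22.6% and 20%), 16 and 0 in the liver (13.8% and 11.5%), and 17 and 0 in the lung (14.9% and 15.6%). For PWK and WSB, 3 were higher and 5 lower in the brain (5.97% and 4.04%), 31 and 0 in the kidney (18.6% and 18.8%), 21 and 0 in the liver (8.73% and 8.31%), and 20 and 0 in the lung (22.7% and 14.5%). The differences were small, with medians over the 67 genes of 0.06, 0.12 and -0.04 in the brain, 0.08, 0.04 and 0.08 in the kidney, 0.05, 0.06 and 0.07 in the liver, and 0.06, 0.06 and 0.07 in the lung, each time with CAST and PWK first, CAST and WSB next and PWK and WSB last, against medians of all genes between -0.01 and 0.03. With blocks of neighbouring animal numbers as a random effect, the calls over the 3 pairs together were 46 in the kidney, 11 in the liver and 12 in the lung, against 87, 43 and 49 without the block. Each block lies within a single cross, so differences between crosses and between blocks cannot be fully told apart. With arrays centred on the median of all genes they were 27 in brain, against 49.

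**Figure D4:**
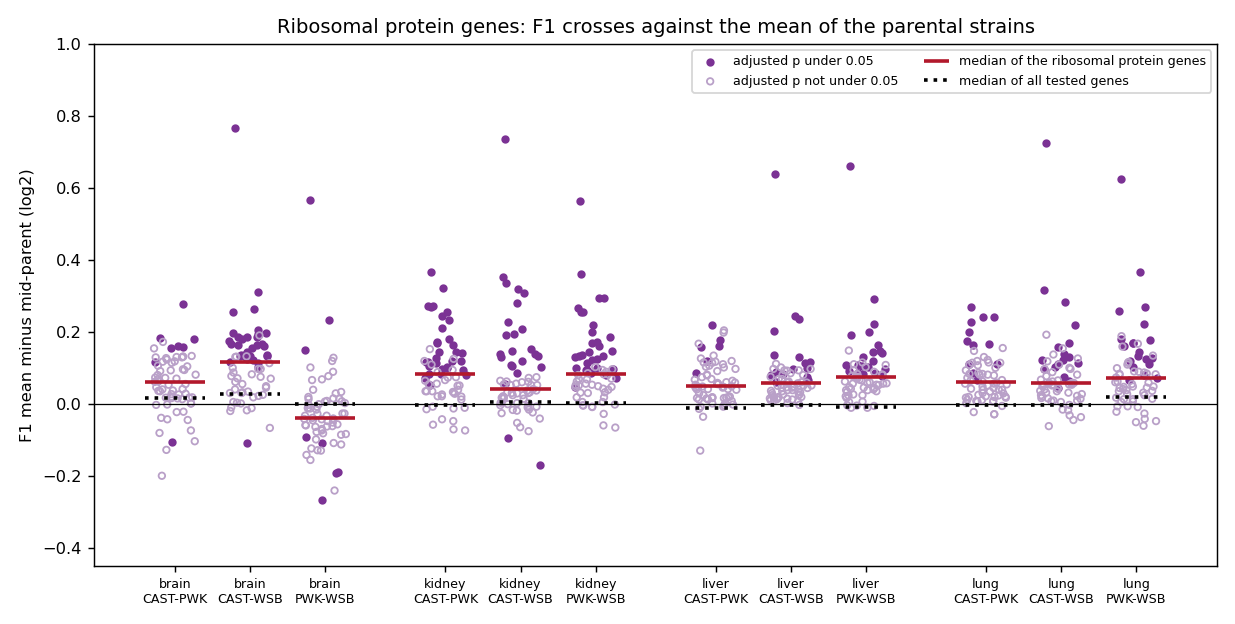
Difference of the F1 mice from the mid-parent (log2) for each ribosomal protein gene, by tissue and pair of strains, with open points for genes that did not pass the test. Most points lie just above 0 except for PWK and WSB in brain, and Rps19 stands highest wherever WSB is a parent.

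Rps19 had the highest mid-parent difference in all 8 comparisons with a WSB parent. It was 0.77 for CAST and WSB in the brain (SE 0.091, adjusted p 8.65e-10 in limma), 0.74 in the kidney, 0.64 in the liver and 0.73 in the lung. For PWK and WSB it was 0.57, 0.56, 0.66 and 0.63 in the same order. Rps19 also had the widest inbred difference in each of these 8 comparisons. An F1 midway between its parents in linear signal lies above their log2 mid-parent, and more so the wider they differ. How much of the Rps19 values this makes up was not tested. For CAST and PWK the highest were Rps4l in brain (0.28, SE 0.078, adjusted p 0.0104), Rps27 in kidney (0.37, SE 0.095) and lung (0.27, SE 0.100), and Rpl39 in liver (0.22, SE 0.039). The lowest called were Rpl10 in brain for CAST and PWK (-0.11) and for CAST and WSB (-0.11), Rps4x in brain for PWK and WSB (-0.27, SE 0.077) and Rpl30 in kidney for CAST and WSB (-0.17, SE 0.047). Rpl39, Rpl10 and Rps4x are X-linked, so their F1 values pool males with only the dam's X and females with both. In liver the position of Rpl39 for CAST minus PWK was 0.53 in CASTxPWK and 0.09 in PWKxCAST. Where none was called lower, the smallest called increase was between 0.04 (Rpl10 in lung, CAST and WSB) and 0.09 (Rpl36 in liver, CAST and PWK).

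As means, more members lay above both parents than below both, except for PWK and WSB in brain. In kidney the F1 mean was above both parents for 38, 30 and 37 of 67 genes and below both for 0, 6 and 0, in the same order of pairs. The shares of all genes there were 18.3%, 23.2% and 20.4% above and 24.6%, 25.6% and 24% below. In liver the members were above for 27, 28 and 31 (16.6%, 17.2% and 14% of all genes) and below for 2, 0 and 0 (25.2%, 23.4% and 22.9%). In lung they were above for 30, 29 and 33 (14.9%, 18.1% and 23.6%) and below for 1, 3 and 5 (19.7%, 23% and 20.3%). Brain split by pair, with 21, 32 and 3 above (24.8%, 29.3% and 20.4%) and 4, 2 and 19 below (21.8%, 22.2% and 21.8%). Other sets moved in the same comparisons. In liver 7 of 7 proliferation markers were higher than the mid-parent for PWK and WSB (median 1.26), and in lung 5 of 5 were higher (median 0.36) while 2 of 2 red cell markers were lower for all 3 pairs. Mitochondrial ribosomal proteins were higher for 49 and lower for 1 of 73 in brain for CAST and WSB, and higher for 35, 29 and 31 and lower for 0, 1 and 1 of 74 in kidney. Biogenesis factors were higher for 4, 15 and 10 and lower for 0 of 40 in liver for the 3 pairs. The part of these other sets in the member differences was not tested.

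Reciprocal crosses differ in which strain is the dam. Outside lung, few members were called between them. For PWKxWSB minus WSBxPWK in brain, limma gave an unadjusted p under 0.05 for 25 of 67 members, against 10.6% of all genes. Of these, 22 were higher and 3 lower, and the median difference of the members was 0.075, against -0.004 for all genes. CASTxWSB minus WSBxCAST called 0 members in brain, kidney and liver (0.779%, 2.44% and 5.62% of all genes were called), where limma gave an unadjusted p under 0.05 for 2, 0 and 5 of them. CASTxPWK minus PWKxCAST called Rpl39 in all 4 tissues (0.151% of all genes called in the brain, 3.03% in the kidney, 9.32% in the liver and 0.611% in the lung), Rpl36a in the kidney (-0.34, adjusted p 0.00338) and liver (-0.23, 0.0192), and Rps4l in the liver (-0.45, 0.00449). PWKxWSB minus WSBxPWK called Rpl39 in all 4 tissues (0.248%, 1%, 1.22% and 8.4%), Rps4l in brain (0.40, 0.0461), and in lung also Rps7 (-0.34), Rpl5 (-0.22), Rps24 (-0.19) and Rpl9 (-0.17). With blocks of neighbouring animal numbers as a random effect, Rpl39 passed for CASTxPWK minus PWKxCAST in brain (adjusted p 0.000138) but not in kidney (1), liver (0.13) or lung (0.564). For PWKxWSB minus WSBxPWK it passed in brain (0.00193), kidney (0.0251) and lung (0.00388) but not in liver (0.286), and no other member passed in these 2 contrasts. The values of Rpl39 by sex follow further on.

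In lung, 31 of 67 members were lower in CASTxWSB than in WSBxCAST and 0 higher, where 24.3% of all genes were lower and 38.8% were called in either direction. The median difference was -0.12, against -0.04 for all genes, and the per-array median of the members averaged 11.47 ± 0.16 in CASTxWSB and 11.65 ± 0.14 in WSBxCAST (SD, n = 11 and 12). The lowest called was Rps27 (-0.39, SE 0.133, adjusted p 0.0156) and the highest Rpl41 (-0.09, SE 0.036, 0.0322). Within males 29 were lower (17.2% of all genes), and within females limma called 0, with 3 at an unadjusted p under 0.05. The difference between the sexes was called by limma for 0 members, with 8 at an unadjusted p under 0.05. In the same comparison 6 of 6 lymphocyte markers were lower, with a list mean of 7.85 in CASTxWSB (7.21 to 8.26) and 8.52 in WSBxCAST (8.19 to 8.87), 1 of 2 red cell markers was lower, and skeletal muscle markers averaged 7.12 and 6.12. Their part in the member difference was not tested. The count rested on the setting: 0 were higher and 1 lower with blocks of neighbouring animal numbers, 1 and 7 with arrays centred on all genes, and 13 and 3 with arrays centred on the members. For PWKxWSB minus WSBxPWK in lung, 4 of 6 lymphocyte markers were lower (median -0.58) beside the 5 members named above.

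Rpl39, which is X-linked and codes for a small protein of the exit tunnel, was lower in inbred PWK. CAST minus PWK was 0.83 in the brain, 0.76 in the kidney, 0.71 in the liver and 0.75 in the lung, and PWK minus WSB was -0.78, -0.78, -0.67 and -0.70, with adjusted p of at most 8.55e-14. F1 males carry only the X of the dam, and they divided by dam. In brain the CASTxPWK males had 12.73, 12.80, 12.82, 12.83 and 13, against 11.63, 11.88, 12.06 and 12.14 in PWKxCAST males. The PWKxWSB males had 11.75, 11.81, 12.04 and 12.06, against 12.78 to 12.92 (median 12.85, n = 6) in WSBxPWK males. Inbred CAST had 12.61 to 13.01, inbred PWK 11.92 and 12.10 in males and 11.84, 12, 12.04 and 12.20 in females, and inbred WSB 12.65 to 12.94. The males with a PWK dam therefore overlapped with inbred PWK and not with the reciprocal males.

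The reciprocal males did not overlap in kidney, liver or lung either. In kidney CASTxPWK males ran from 12.99 to 13.10, against 12.27 to 12.76 in PWKxCAST males, and PWKxWSB males from 11.97 to 12.62, against 12.96 to 13.12 in WSBxPWK males. In liver CASTxPWK males ran from 12.94 to 13.10, against 12.22 to 12.66 in PWKxCAST males, and PWKxWSB males from 11.97 to 12.71, against 12.80 to 13.11 in WSBxPWK males. In lung CASTxPWK males had 12.87, 12.94, 13.08 and 13.11, against 11.93, 12.11, 12.30, 12.50 and 12.56 in PWKxCAST males. PWKxWSB males had 11.85, 12.20, 12.41 and 12.41, against 12.98, 12.98, 13.04, 13.05 and 13.16 in WSBxPWK males. Every male with a PWK dam was thus below every male of the reciprocal cross in each tissue. Within males CASTxPWK minus PWKxCAST was 0.91 in the brain (SE 0.097, adjusted p 1.32e-10), 0.58 in the kidney (SE 0.084, 7.46e-07), 0.63 in the liver (SE 0.075, 1.65e-09) and 0.72 in the lung (SE 0.102, 5.86e-07). PWKxWSB minus WSBxPWK was -0.94, -0.76, -0.62 and -0.83 in the same order, with adjusted p of at most 4.85e-09. With blocks of neighbouring animal numbers, both male contrasts passed in all 4 tissues, with adjusted p of at most 0.000377. Within females the same 2 contrasts lay between -0.16 and 0.11, and none passed. CASTxWSB minus WSBxCAST passed in neither sex. Females of the 4 crosses with a PWK parent, which carry both X chromosomes, averaged between 12.55 and 12.99 over the tissues.

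Whether the reciprocal difference itself differed between males and females was tested directly, in a test added after these values were seen. For CASTxPWK minus PWKxCAST, the male value minus the female value was 0.80 in the brain (SE 0.131, adjusted p 0.000168), 0.56 in the kidney (SE 0.121, 0.0128), 0.62 in the liver (SE 0.109, 0.000244) and 0.73 in the lung (SE 0.138, 0.00105). For PWKxWSB minus WSBxPWK it was -0.96 (SE 0.130, 9.54e-07), -0.60 (SE 0.124, 0.0102), -0.59 (SE 0.101, 0.000219) and -0.67 (SE 0.135, 0.0043). Rpl39 was the only member called in each of these 8 tests, in which between 0.0443% and 0.257% of all genes were called. With arrays centred on all genes, the kidney value for CASTxPWK (adjusted p 0.0517) and the liver value for PWKxWSB (-0.46, 0.0781) no longer passed. Both Rpl39 clusters, of which 1 lies on the X chromosome, gave inbred differences within 0.03 of each other.

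**Figure D5:**
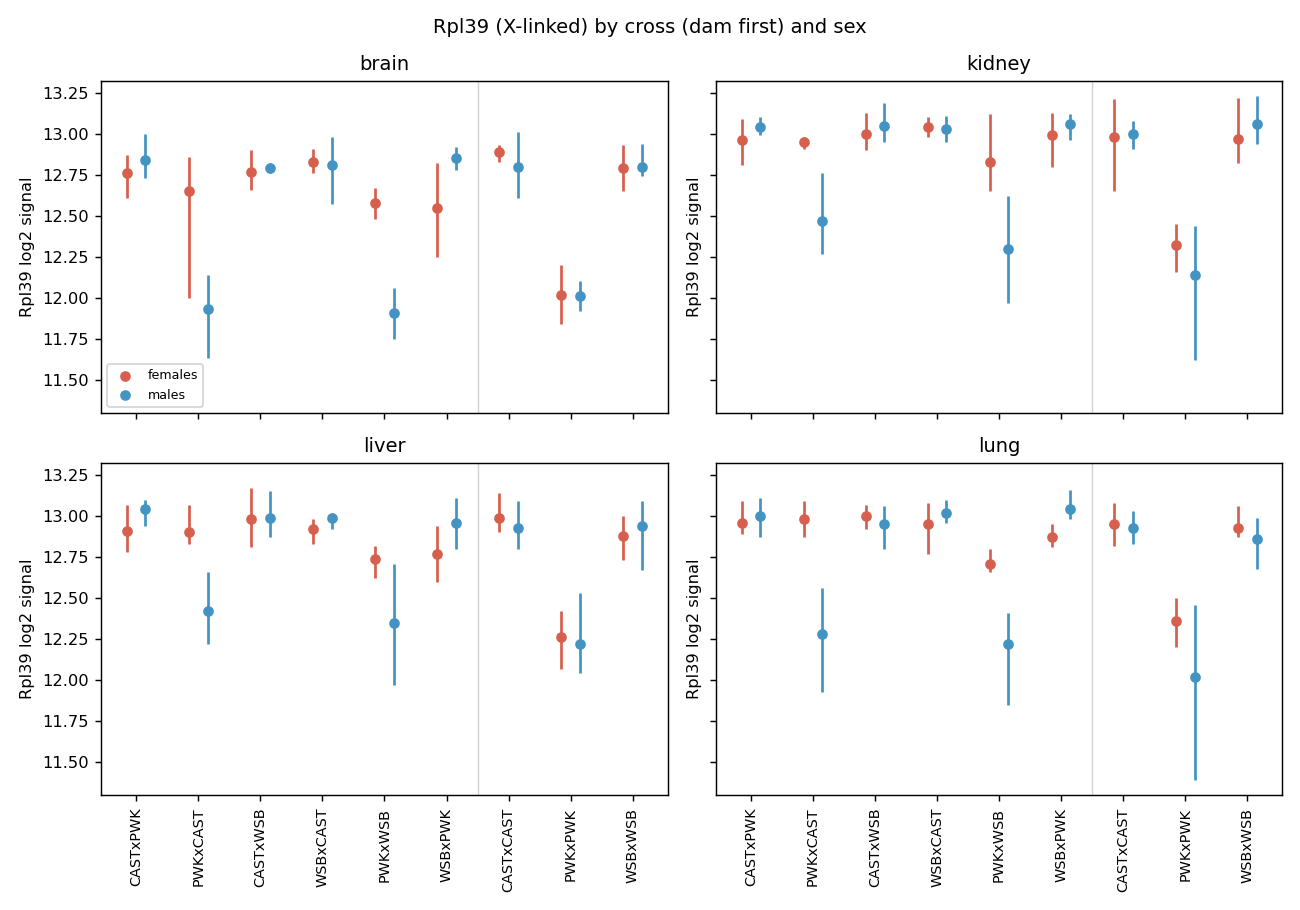
Log2 signal of Rpl39 by cross, sex and tissue, with F1 crosses left of the inbred strains, females left of males, points for means and vertical lines from the lowest to the highest array. In PWKxCAST and PWKxWSB the males sit near inbred PWK and the females higher.

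The 2 arrays with Xist against their sex label bear on Rpl39. PWKxCAST brain replicate 9, labelled female, had Rpl39 at 12, where the other 5 females averaged 12.78 ± 0.07 (12.69 to 12.86), with Xist at 3.98 and Eif2s3y at 3.83. The other 43 females of brain had Eif2s3y at 3.45 to 4.6, and the 41 males at 7.61 to 9.24, so this array had neither marker. PWKxWSB liver replicate 8, labelled male, had 12.71, where the other 5 males averaged 12.27 ± 0.18 (11.97 to 12.43), with Xist at 10.70 and Eif2s3y at 4.53. Without these arrays the male minus female value was 0.93 for CASTxPWK in brain (adjusted p 9.69e-09) and -0.67 for PWKxWSB in liver (5.04e-06).

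The other X-linked members differed less. Rpl36a was lower in CASTxPWK than in PWKxCAST males in kidney (-0.51, adjusted p 0.00138) and liver (-0.36, 0.0169) and lower in CASTxWSB than in WSBxCAST males in lung (-0.35, 0.0447). Rpl10 was lower in PWKxWSB than in WSBxPWK males in kidney (-0.13, 0.00433). Rps4x, whose chosen cluster lies on the X chromosome, passed in no reciprocal comparison within a sex. The chosen clusters of Rpl36a and Rpl10 lie among clusters of other chromosomes.

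Between the sexes, over all 9 crosses, members differed little. In brain limma called 0 members (0.0708% of all genes), with 2 higher and 5 lower in females at an unadjusted p under 0.05. In kidney 2 were higher in females, Rpl39 (0.10, SE 0.029) and Rpl10 (0.03, SE 0.009), where 10.9% of all genes were called. In liver 7 were lower in females and 0 higher (5% of all genes were lower and 8.76% higher): Rps4l (-0.25, SE 0.049, adjusted p 6.55e-05), Rps9, Rps12, Rpl10a, Rps4x, Rps6 and Rpl6 (-0.04). In lung Rpl39 was the 1 member called (0.15, SE 0.031, adjusted p 0.00148, with 3.52% of all genes), and 34 members, Rpl39 among them, had an unadjusted p under 0.05, all with higher values in females, against 22.4% of all genes in either direction. The F1 males with a PWK dam, in which Rpl39 was low, enter the male means of Rpl39 in kidney and lung. Their part in its sex difference was not tested. Proliferation markers were lower in females for 7 of 7 genes in liver (median -0.54) and 6 of 6 in kidney (-0.39), and the part of these markers in the member differences was not tested.

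Within a cross and sex the members moved together from array to array. After each array was set against its cross and sex mean, the median correlation over pairs of members was 0.47 in the brain, 0.56 in the kidney, 0.43 in the liver and 0.55 in the lung, against 0.03 to 0.04 over all genes tested. These are descriptions over 85 to 102 arrays, and the pairs share arrays, array scaling and, for near-identical copies, probe sequence. Set against the mean of the other members, 59 genes in the brain, 60 in the kidney, 50 in the liver and 60 in the lung had a correlation above 0.5. The highest were Rpl27a in the brain (0.91), Rpl9 in the kidney (0.92), Rps18 in the liver (0.94) and Rpl35 in the lung (0.95), chosen after their values were seen. Rpl30, which was lower in kidney than in the other tissues, had the lowest value in brain (-0.48), kidney (-0.13) and lung (0.04), and Rpl29 in liver (0.22). The per-array median of the members lay between 10.49 and 11.39 in the brain, 11.16 and 11.99 in the kidney, 11.16 and 11.77 in the liver, and 10.88 and 11.88 in the lung.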

How the data were processed

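Arrays of 4 tissues from 111 mice were grouped by cross, sex and tissue from the labels, and replicate numbers, given in the order of the records, only name an array. The authors deposited log2 signals per transcript cluster. Per the submitters' processing notes these came from RMA in Affymetrix Expression Console, and versions are not given in the sources used here. Whether the tissues were normalised together, and litter, plate or collection day, are not given either. Runs of neighbouring animal numbers each lie within a single cross, and inbred CAST females and males came from different runs. Strain, mid-parent and reciprocal differences can therefore not be fully told apart from differences between runs. Of 35556 clusters, 21218 have 1 symbol, 1881 several and 12457 none in the platform annotation. Only clusters with 1 symbol were used, and the RefSeq gene table (GRCm38.p6) gave current symbols and chromosomes. For arrays, their number limits the precision: cross-by-sex groups held 2 to 7 arrays. No pair of arrays was identical, with correlations of at most 0.9952.

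Genes at or above the 40th percentile of a tissue's mean levels (11292 per tissue) were tested in R 4.3.3 with limma 3.58.1 (lmFit, contrasts.fit, eBayes with a trend). Each tissue had a model of 18 cross-by-sex means, with the sexes weighted equally in strain, mid-parent and reciprocal contrasts. Tissues were compared in a model of 36 cross-by-tissue means. The strain-by-tissue F-test kept the animal as a random block (correlation 0.0473). Benjamini-Hochberg adjustment ran over all genes tested, and an adjusted p under 0.05 is a call. The models were tested on simulated data, with noise drawn independently for each gene and array. Such data hold no correlation within runs of animal numbers or between members, so that test does not cover it. Members, gene lists, tests and alternatives were chosen with earlier results of these data known.

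The genes named are, per tissue, the 3 highest and 3 lowest in level and in called tissue difference, every gene with a called inbred difference of at least 1 log2, and the highest and lowest called mid-parent, reciprocal and sex differences. They also include all X-linked members, all symbols ending in l with their counterparts, and up to 3 called members of each list by smallest p. Alternatives were filters, an additive model, eBayes without a trend, array weights, a random block for 25 runs of neighbouring animal numbers, other scalings, the mean of all clusters, leaving out arrays, and the cluster on the gene's own chromosome. The last, and leaving out the female array that lacks Xist, were added after seeing the data.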

Additional observations from a re-analysis of the deposited data

Results flagged for a closer look

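Among the 5 genes with large inbred differences, 78 groups of 4 to 10 arrays were looked at for an array far from the others, and 4 had one. Chance gives such an array in about 1 in 20 groups. Rpl7 in PWKxWSB brain was lowest in replicate 6, at 9.80, where the next array was at 10.42. In CASTxPWK lung, Rpl13 was lowest in replicate 4 at 10.80, with the next at 11.08, and Rps27l was lowest in the same replicate at 8.91, with the next at 9.56. Rps19 in CASTxPWK lung was lowest in replicate 6, at 6.80, with the next at 7.68.

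Several strain differences were unequal between tissues in the strain-by-tissue F-test of limma. For CAST minus PWK the adjusted p was 0.000382 for Rpl13, 8.35e-20 for Rps26 and 0.00907 for Rps27l. For CAST minus WSB it was 0.0462 for Rpl7. For PWK minus WSB it was 3.05e-06 for Rpl13, 5.04e-05 for Rpl7, 8.6e-17 for Rps26 and 1.29e-05 for Rps27l.

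The reciprocal difference of Rpl39 differed between males and females. The male minus female value of CASTxPWK minus PWKxCAST was 0.797 in the brain, 0.563 in the kidney, 0.624 in the liver and 0.731 in the lung. That of PWKxWSB minus WSBxPWK was -0.964 in the brain, -0.598 in the kidney, -0.594 in the liver and -0.666 in the lung.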

How the results depend on the processing

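Counts of called members, summed over the contrasts of a tissue, stayed within 1.5 times of the reported count in 36 of 36 alternatives for the tissue comparison, 42 of 42 for the inbred strains, 12 of 12 for strain by tissue, 35 of 42 for the mid-parent, 33 of 42 for reciprocal crosses and 32 of 42 for sex. The 5 genes with large inbred differences kept direction and call in 171 of 171. Reported counts in brain, kidney, liver and lung were 49, 87, 43 and 49 for the mid-parent, 3, 3, 4 and 37 for reciprocal crosses and 0, 2, 7 and 1 for sex. With array weights the reciprocal count was 19 in brain, 12 in liver and 60 in lung, the mid-parent count 78 in liver, and the sex count 11 in liver and 16 in lung. With a random block for runs of neighbouring animal numbers, the mid-parent count was 46 in kidney, 11 in liver and 12 in lung, the reciprocal count 1, 0 and 2, and the sex count 1 in kidney. With arrays centred on all genes the mid-parent count was 27 in brain, and the reciprocal count 9 in liver and 13 in lung. With arrays centred on the members the mid-parent count was 30 in brain and 24 in liver, the reciprocal count 24 in lung, and the sex count 1 in kidney, 2 in liver and 12 in lung. The sex count was 1 in kidney with the additive model, 1 in kidney and 5 in lung with own-chromosome clusters, and 1 in brain without the female array that lacks Xist, an alternative added after seeing the data. The causes were not tested. Leaving out 1 array at a time, the counts in brain, kidney, liver and lung lay at 75 to 101, 95 to 105, 103 to 116 and 90 to 100 for the inbred strains, 35 to 52, 80 to 92, 40 to 58 and 40 to 61 for the mid-parent, 2 to 9, 3 to 3, 4 to 4 and 33 to 42 for reciprocal crosses, and 0 to 0, 2 to 3, 5 to 10 and 1 to 11 for sex. The sex count in lung became 11 without WSBxWSB replicate 11, 5 without CASTxCAST replicate 4, 4 without CASTxPWK replicate 2, 3 without CASTxPWK replicate 5 and 3 without PWKxWSB replicate 2, and the reciprocal count in brain became 9 without PWKxWSB replicate 6. Tissues share animals, and with the animal as a random block the tissue counts were 65, 65, 56 and 60, against 64, 65, 55 and 60. Between crosses and sexes no animal is shared. No paired analysis was possible because replicate numbers there follow record order and pair no samples.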
